A study of Mus musculus with 6 samples.

Results

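Blood coagulation, the dissolving of clots and the receptors that let cells sense clotting enzymes were followed through 33 genes in CD31-selected lung cells of newborn mice. CD31, encoded by Pecam1, is an adhesion molecule of endothelial cells, and cells carrying it were drawn from digested lung with magnetic beads. The genes were listed by function, and all 33 had 1 Ensembl ID among the 56941 of the count table. They were 7 genes of tissue factor, clotting factors and von Willebrand factor and 10 of anticoagulants and related proteins, Gas6 among them. The others were 10 of the plasminogen system, 4 protease-activated receptors and 2 ectonucleotidases. The hyperoxia group comprised 3 libraries from pups kept in 75% oxygen, and the room air group 3 libraries from pups kept in 21% oxygen. Treatment began on postnatal day 0, and lungs were taken on postnatal day 7, when alveoli are forming. No strain, transgene or further treatment is named, and the labels do not say whether each library came from its own animal, and p-values therefore describe the variation among these 6 libraries, which may be technical. High oxygen of this kind serves in mice to mimic bronchopulmonary dysplasia, a chronic lung disease of preterm infants. From the series title, the study concerned TRKB signalling and the growth of alveolar capillaries after such injury.

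Clotting starts when tissue factor meets factor VII of the plasma, and a chain of proteases then makes thrombin, which cuts fibrinogen into fibrin. Healthy endothelium keeps blood fluid: thrombomodulin turns thrombin into an activator of protein C, tissue factor pathway inhibitor blocks the first step, tissue plasminogen activator starts fibrin removal, and the ectonucleotidases CD39 and CD73 convert the platelet activator ADP to adenosine. Protease-activated receptors are G protein-coupled receptors that thrombin, trypsin-like proteases or other enzymes switch on by cutting their outer end. Most circulating clotting factors are made in the liver, whereas von Willebrand factor and thrombomodulin are typical products of endothelial cells.

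Of the 33 genes, 28 passed the filter on low counts, and 9 of these rose in hyperoxia. These were tissue factor (F3), protein S (Pros1), Gas6, the urokinase receptor (Plaur), protease nexin-1 (Serpine2), the receptors F2r and F2rl1, and the ectonucleotidase genes Entpd1 and Nt5e. By edgeR's quasi-likelihood test with Benjamini-Hochberg adjustment over all 17072 tested genes, at an adjusted p below 0.05, 9 of 28 (32.1%) were higher, against 6.77% of all tested genes. In the same test 0 of the 28 were lower, against 4.41% of all tested genes. The genes were chosen with earlier results of these data known, so these shares describe the list and are no test of it. At the same adjusted threshold DESeq2 had 13 higher and 1 lower, and limma-voom 9 higher and 0 lower. At an unadjusted p below 0.05, edgeR and limma-voom each had 14 higher and 3 lower, and DESeq2 14 higher and 4 lower. The shares of all tested genes above hold for edgeR at the adjusted threshold only. They are no background for the counts by other tools or by unadjusted p. The median log2 fold change, hyperoxia over room air, was 0.33 over the 28 genes and -0.01 over all tested genes. Without hyperoxia 3 the 9 higher genes became 5, while the higher genes of the whole table went from 1156 to 713 of 17799 tested. In bulk libraries, more cells of a type and more RNA per cell cannot be told apart.

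The promoters of 3 genes that rose, F3, Plaur and F2r, are shown because each holds the AP-1 motif, and that of Nt5e because Nt5e changed most. Each sequence is the 250 bases before the RefSeq transcription start in GRCm38.p6, read 5′ to 3′ on the gene's strand. RefSeq held such windows for 8 of the 9 genes that rose, all but F2rl1. The F3 window is chr3:121723287-121723536 on the + strand, the Plaur window chr7:24462233-24462482 on the + strand, the F2r window chr13:95618467-95618716 on the - strand and the Nt5e window chr9:88327359-88327608 on the + strand. Capitals mark matches on either strand to AP-1 (TGANTCA), NF-kB (GGANTTTCC), EGR1 (GCGNGGGCG) or the antioxidant response element (TGACNNNGC).
F3: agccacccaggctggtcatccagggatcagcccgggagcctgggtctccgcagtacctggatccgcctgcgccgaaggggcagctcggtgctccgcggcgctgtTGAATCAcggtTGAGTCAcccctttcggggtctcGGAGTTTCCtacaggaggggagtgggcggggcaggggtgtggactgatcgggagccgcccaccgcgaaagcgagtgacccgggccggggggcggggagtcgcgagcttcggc
Plaur: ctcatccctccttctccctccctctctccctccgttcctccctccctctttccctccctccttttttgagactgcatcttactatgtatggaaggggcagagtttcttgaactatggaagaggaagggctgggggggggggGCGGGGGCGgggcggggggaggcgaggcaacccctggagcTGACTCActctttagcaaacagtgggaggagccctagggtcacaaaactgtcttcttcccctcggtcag
F2r: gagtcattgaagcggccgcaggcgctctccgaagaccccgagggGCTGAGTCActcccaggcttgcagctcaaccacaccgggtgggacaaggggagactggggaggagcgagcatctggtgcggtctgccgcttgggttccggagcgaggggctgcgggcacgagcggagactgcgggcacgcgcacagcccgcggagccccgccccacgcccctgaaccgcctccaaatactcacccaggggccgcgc
Nt5e: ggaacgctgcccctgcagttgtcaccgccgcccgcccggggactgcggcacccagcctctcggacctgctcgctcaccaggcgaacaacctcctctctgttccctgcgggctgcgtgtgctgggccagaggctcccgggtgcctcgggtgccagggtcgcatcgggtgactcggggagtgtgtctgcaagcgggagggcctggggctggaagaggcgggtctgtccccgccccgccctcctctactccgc
The F3 window held 2 AP-1 matches, starting 146 and 135 bases before the start site, and 1 NF-kB match. The Plaur window held 1 AP-1 match and 1 EGR1 match, and the EGR1 match overlapped GC boxes (GGGCGG). In F2r the AP-1 match lay inside the match to the antioxidant response element, so both are the same bases. The Nt5e window held none of the motifs marked by capitals, but 4 GC box matches, left in lower case, of which neighbouring ones overlapped. Among all 32851 RefSeq windows of this length, 6.75% held an AP-1 match, 1.07% an NF-kB match, 4.7% an EGR1 match, 10.2% an antioxidant response element and 32.7% a GC box. AP-1 matches were found in 3 of the 8 windowed genes that rose, EGR1 matches in 2 (Plaur and Serpine2) and GC boxes in 7. The Gas6 window is among them, although the bases after its RefSeq start were not found in a GENCODE M21 transcript of Gas6. The CRE motif (TGACGTCA, in 1.55% of all windows) and the TATA box letters (TATAAA, in 12.4%) had 0 matches in the 8 genes' windows. A match is a description of these letters and was not tested as a binding site.

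**Figure D1:**
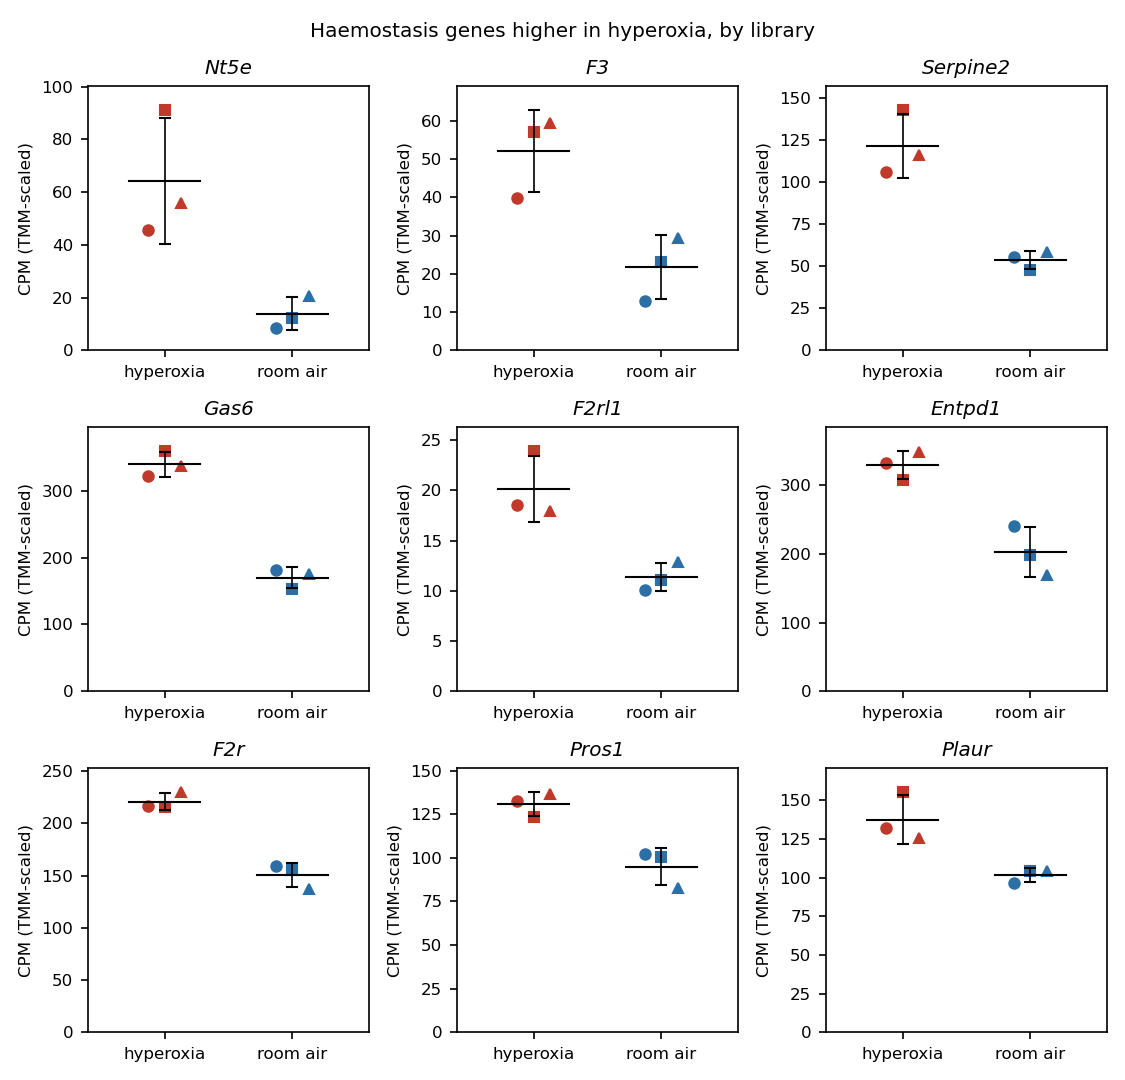
Level in CPM (TMM-scaled) of the 9 genes that rose, in each hyperoxia library (red, left) and room air library (blue, right). Circles, squares and triangles are replicates 1, 2 and 3, long bars are means and error bars SD (n = 3 per group). In each of the 9 panels the lowest hyperoxia library lies above the highest room air library.

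Libraries held 39379793 to 42343192 counts. Levels are given in CPM, each library's counts brought to 1 shared total and adjusted by TMM, and as mean ± SD over n = 3 libraries. The endothelial markers Cdh5 and Pecam1 were abundant, at 3497 and 2341 CPM on average in hyperoxia and 4584 and 2783 CPM in room air. Markers of other lung cells were abundant too, and Sftpc of alveolar type 2 cells averaged 9660 CPM in hyperoxia and 10130 CPM in room air. Of 8 alveolar type 2 markers 0 passed by edgeR, and their median log2 fold change was -0.07. Summed over 12 endothelial markers, the hyperoxia libraries held 11350 to 15320 CPM and the room air libraries 13670 to 18680 CPM, with hyperoxia 2 and room air 3 the lowest of their groups. Of these markers 1 fell and 11 did not pass, but only 1 of the 12 had a positive log2 fold change, and the median was -0.28. All 8 alveolar type 1 markers rose, and their sum was 5163 to 6772 CPM in hyperoxia and 2145 to 3010 CPM in room air, highest within its group in hyperoxia 2 and room air 3. Of the 9 genes that rose, 5 were likewise highest within hyperoxia in hyperoxia 2 (Gas6, Plaur, Serpine2, F2rl1 and Nt5e). Within room air, 4 were highest in room air 3 (F3, Serpine2, F2rl1 and Nt5e), so that 3 were at the top of both groups. That place was not particular to alveolar type 1 markers. The sums of alveolar type 2, airway epithelial, macrophage, fibroblast, pericyte and smooth muscle, and mesothelial markers were also highest of their groups in hyperoxia 2 and room air 3. Another 3, Pros1, F2r and Entpd1, were lowest of their groups in both libraries, where the endothelial sum was lowest. For F2r, however, hyperoxia 2 and hyperoxia 1 were nearly equal, at 216.2 and 216.4 CPM. With hyperoxia 2 and room air 3 left out, 9 of the 33 genes were higher and 1 lower, a setting chosen after seeing the data. The shares of all tested genes given for the 6 libraries are no background for these counts. The alveolar type 1 sums of the libraries that remain were 5163 and 5270 CPM in hyperoxia and 2145 and 2426 CPM in room air, still without overlap.

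Tissue factor, the membrane receptor that starts clotting, was the only 1 of the 7 clotting genes that rose. F3 had 39.8, 56.9 and 59.5 CPM in hyperoxia libraries 1 to 3, against 12.8, 23.0 and 29.4 CPM in room air libraries 1 to 3. Every hyperoxia library was above every room air library, and room air 1 was the lowest. The log2 fold change was 1.26 (SE 0.26, edgeR adjusted p = 0.0113), or 2.4-fold. The call was lost without hyperoxia 2 (log2 fold change 1.19, adjusted p = 0.0746). All 8 alveolar type 1 markers rose in the same comparison, with a median log2 fold change of 1.24. Their part in the F3 change was not tested.

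Von Willebrand factor, which tethers platelets to injured vessel walls, was the most abundant of the clotting genes. Vwf had 3877, 2975 and 3659 CPM in hyperoxia libraries, against 2808, 2759 and 1659 CPM in room air libraries. The groups did not overlap, though hyperoxia 2 and room air 2 lay close together and room air 3 was far below the others. The change did not pass (log2 fold change 0.54, 95% interval 0.07 to 1.01, edgeR adjusted p = 0.141). It passed by DESeq2 (adjusted p = 0.0347), in the unfiltered table (0.017) and with both hyperoxia 2 and room air 3 removed (log2 fold change 0.42, adjusted p = 0.0284). F5, the cofactor of factor X, had 5.69, 6.65 and 4.98 CPM in hyperoxia libraries and 4.02, 2.22 and 3.09 CPM in room air libraries. These groups did not overlap either, yet F5 did not pass (log2 fold change 0.89, SE 0.28, edgeR adjusted p = 0.0658), while it passed by DESeq2 (0.0224) and with no filter (0.0312).

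The remaining clotting factor genes were low and gave no call. F7 and F10, the factor VII and factor X genes that lie side by side on chromosome 8, had nearly equal means in both groups. F7 averaged 4.83 ± 1.35 CPM in hyperoxia and 4.81 ± 1.61 CPM in room air, and F10 averaged 4.44 ± 0.631 CPM in hyperoxia and 4.44 ± 0.855 CPM in room air. The 95% interval of the log2 fold change was -0.66 to 0.67 for F7 and -0.56 to 0.55 for F10. F8, whose protein is the cofactor of factor IX and circulates bound to von Willebrand factor, averaged 2.69 ± 1.28 CPM in hyperoxia and 3.55 ± 0.776 CPM in room air (log2 fold change -0.40, adjusted p = 0.556 by edgeR). F13a1 encodes the subunit that cross-links fibrin. It averaged 2.13 ± 1.3 CPM in hyperoxia and 3.96 ± 1.62 CPM in room air (log2 fold change -0.89, adjusted p = 0.256 by edgeR), with overlapping groups. Of the 7 tested platelet and megakaryocyte markers 0 passed by edgeR and limma-voom and 1 by DESeq2, each tool had 1 at an unadjusted p below 0.05, and their sum was 32.8 to 54.4 CPM in hyperoxia and 25.6 to 50.3 CPM in room air.

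**Figure D2:**
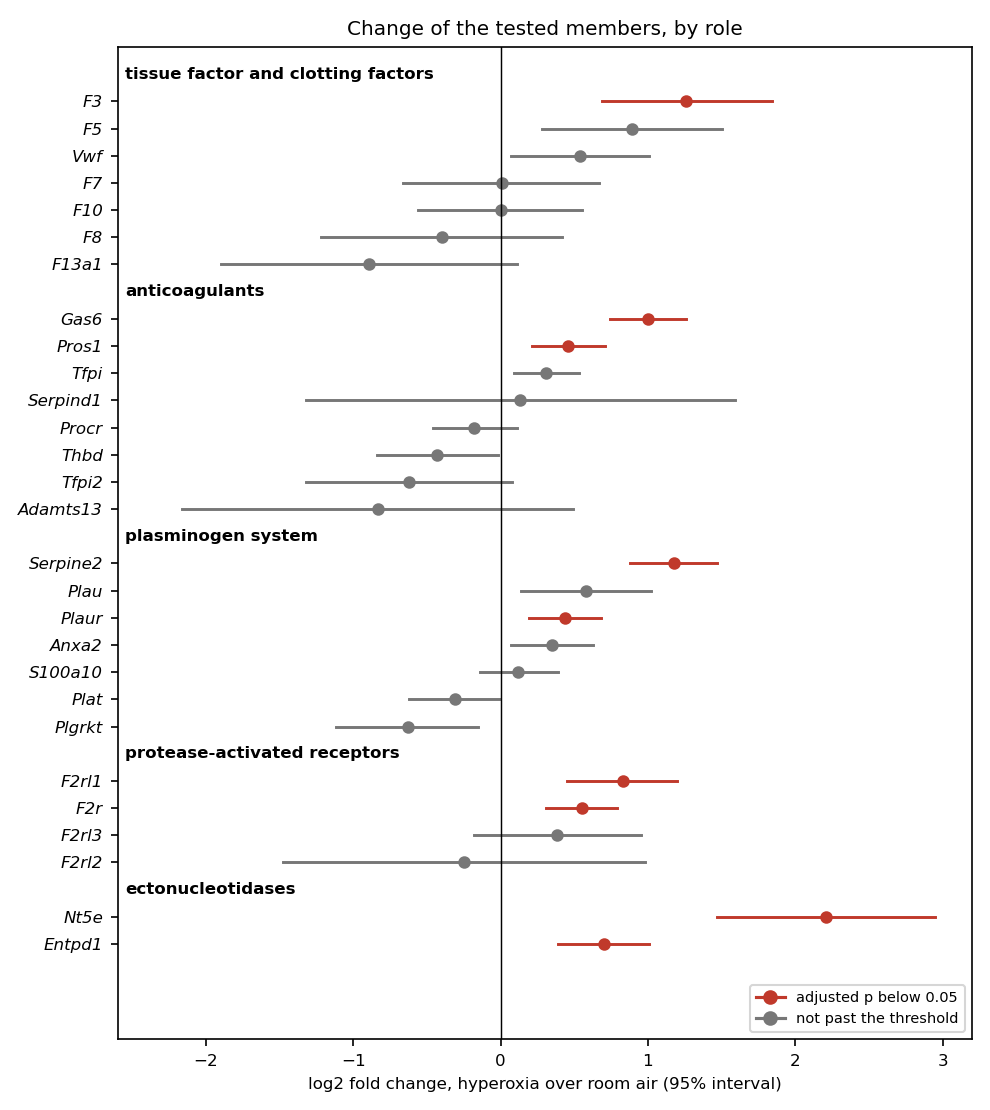
Log2 fold change, hyperoxia over room air, of the 28 tested genes by role, with 95% intervals from edgeR. Red genes passed an adjusted p below 0.05 and all lie to the right of 0, from Plaur at 0.44 to Nt5e at 2.21; grey genes did not pass.

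Of the genes listed with the anticoagulants, Gas6 and Pros1 rose, though Gas6 is not itself an anticoagulant. These encode related vitamin K-dependent proteins that bind the TAM receptor kinases, and protein S is also the cofactor of activated protein C. Gas6 had 321.6, 359.2 and 337.4 CPM in hyperoxia libraries, against 182.1, 152.7 and 175 CPM in room air libraries. The replicates of each group lay close together, and the groups were far apart. The log2 fold change was 1.00 (SE 0.12, edgeR adjusted p = 0.000648), and the call held under all 15 alternatives. Pros1 had 132.7, 123.4 and 136.6 CPM in hyperoxia libraries, against 102, 100.4 and 82.5 CPM in room air libraries. No libraries overlapped between the groups, but the step was smaller (log2 fold change 0.46, SE 0.11, edgeR adjusted p = 0.0257). The Pros1 call was lost without hyperoxia 1 (edgeR adjusted p = 0.0809), hyperoxia 3 (0.117), room air 2 (0.0559) or room air 3 (0.0585).

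Thrombomodulin and the protein C receptor, endothelial brakes on thrombin, did not pass in either direction. Thbd, the thrombomodulin gene, had 1195, 871 and 1095 CPM in hyperoxia libraries, against 1618, 1569 and 1074 CPM in room air libraries. The groups overlapped through room air 3, which lay below 2 of the hyperoxia libraries. The log2 fold change was -0.43 (95% interval -0.84 to -0.02, edgeR adjusted p = 0.18). Thbd passed as lower without room air 3 (log2 fold change -0.60, adjusted p = 0.032) and with both hyperoxia 2 and room air 3 removed (log2 fold change -0.49, adjusted p = 0.0153). The summed endothelial markers were likewise lowest in hyperoxia 2 and room air 3. Procr, the receptor that presents protein C to this complex, averaged 28.8 ± 2.92 CPM in hyperoxia and 32.6 ± 3.36 CPM in room air (log2 fold change -0.18, 95% interval -0.46 to 0.11).

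Tfpi, the inhibitor of tissue factor with factor VII, had 68.7, 60.9 and 64.1 CPM in hyperoxia libraries, against 52.2, 51.7 and 52.1 CPM in room air libraries. The room air libraries were almost equal and all below the hyperoxia libraries, but the change did not pass (log2 fold change 0.31, SE 0.10, edgeR adjusted p = 0.0713). Tfpi2, a related Kunitz-type inhibitor that acts on plasmin, had 3.25, 1.61 and 2.36 CPM in hyperoxia libraries and 4.16, 3.6 and 3.31 CPM in room air libraries. It was the only gene of the 33 with all hyperoxia libraries below all room air libraries, although hyperoxia 1 and room air 3 almost touched, and it did not pass (log2 fold change -0.62, SE 0.32, edgeR adjusted p = 0.263). Across the 28 tested genes the groups did not overlap in 13 with hyperoxia above and in 1 with hyperoxia below, that is in 50% of them, against 30.9% of all tested genes. Hyperoxia was above in 46.4% of the 28 and in 16.5% of all tested genes, and below in 14.4% of all tested genes.

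Adamts13, the protease that trims von Willebrand factor, had 19, 27 and 12 counts in hyperoxia libraries and 46, 37 and 21 counts in room air libraries, with overlapping groups (log2 fold change -0.83, SE 0.60, edgeR adjusted p = 0.433). Serpind1, the heparin cofactor II gene, had 12 to 24 counts in hyperoxia and 14 to 16 in room air. Serpinc1, the antithrombin gene, had 12, 0 and 7 counts in hyperoxia and 4, 17 and 4 in room air, and Proc, the protein C gene, had 4, 0 and 5 counts in hyperoxia and 2, 2 and 10 in room air. Both are liver products and were below the filter. Of Serpinc1's exonic bases, 34.4% overlap Zbtb37 on the other strand in GENCODE M21, so its few counts may include reads of that gene.

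In the plasminogen system an inhibitor and a receptor rose. Serpine2 encodes protease nexin-1, a serpin that inhibits thrombin, urokinase and tissue plasminogen activator. It had 106.2, 142.9 and 115.9 CPM in hyperoxia libraries, against 55.6, 47.7 and 58.2 CPM in room air libraries. The lowest hyperoxia library was well above the highest room air library. Highest of their groups were hyperoxia 2 and room air 3, the libraries highest in alveolar type 1 and several other non-endothelial marker sums. The log2 fold change was 1.18 (SE 0.13, edgeR adjusted p = 0.000566), and the call held under all 15 alternatives. The part of alveolar type 1 or other non-endothelial cells in this change was not tested. Plaur, the receptor that holds urokinase at the cell surface, had 131.8, 155.3 and 125.4 CPM in hyperoxia libraries, against 96.6, 104.4 and 104.1 CPM in room air libraries. The groups did not overlap, but the rise was modest (log2 fold change 0.44, SE 0.11, edgeR adjusted p = 0.0316). The Plaur call was lost without hyperoxia 1 (edgeR adjusted p = 0.0675), hyperoxia 2 (0.106), hyperoxia 3 (0.0602), room air 1 (0.104) or room air 2 (0.0775), and with both hyperoxia 2 and room air 3 removed (0.0747).

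The plasminogen activators themselves did not pass. Plau, the urokinase gene, had 38.1, 45.9 and 44.7 CPM in hyperoxia libraries, against 39.3, 21.3 and 25.4 CPM in room air libraries. Room air 1 lay among the hyperoxia libraries (log2 fold change 0.58, SE 0.20, edgeR adjusted p = 0.0906), and without it Plau passed (log2 fold change 0.87, adjusted p = 0.00916). It also passed by DESeq2 (0.0447) and in the unfiltered table (0.000876). Plat, the gene of tissue plasminogen activator, had 83.4, 91.9 and 99.7 CPM in hyperoxia libraries and 113, 134.5 and 94.3 CPM in room air libraries. Room air 3 fell within the hyperoxia range, and Plat did not pass (log2 fold change -0.31, 95% interval -0.62 to -0.01, edgeR adjusted p = 0.183).

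The cell surface receptors of plasminogen showed no call. Anxa2 and S100a10 encode the partners of the annexin A2 complex, which binds plasminogen and its activator. Anxa2 had 589.2, 632 and 574.9 CPM in hyperoxia libraries, against 517.4, 418.6 and 477.4 CPM in room air libraries, without overlap. It did not pass by edgeR (log2 fold change 0.35, SE 0.13, adjusted p = 0.112) and passed by DESeq2 (0.0327). S100a10 averaged 124.7 ± 7.94 CPM in hyperoxia and 114.6 ± 15.02 CPM in room air, with overlap (log2 fold change 0.12, 95% interval -0.14 to 0.39). Plgrkt, a membrane receptor for plasminogen, had 12.4, 11.9 and 12.6 CPM in hyperoxia libraries and 12.3, 21.2 and 23.7 CPM in room air libraries. Its hyperoxia libraries were nearly equal and room air 1 lay among them (log2 fold change -0.63, SE 0.22, edgeR adjusted p = 0.0949). Plgrkt passed as lower without room air 1 (log2 fold change -0.88, adjusted p = 0.0106), by DESeq2 (0.0374) and with no filter (0.00821).

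Members of the plasminogen system made mainly elsewhere were below the filter. Plg, the plasminogen gene of the liver, had 2, 0 and 0 counts in hyperoxia and 0 in each room air library, where a count of 0 allows up to 3 counts. Serpinf2, the gene of alpha-2-antiplasmin, had 4, 0 and 0 counts in hyperoxia and 0, 1 and 2 in room air. Serpinb2, which encodes the urokinase inhibitor PAI-2, had 0, 32 and 19 counts in hyperoxia and 8, 8 and 4 in room air. Its hyperoxia libraries lay on both sides of the room air libraries.

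**Figure D3:**
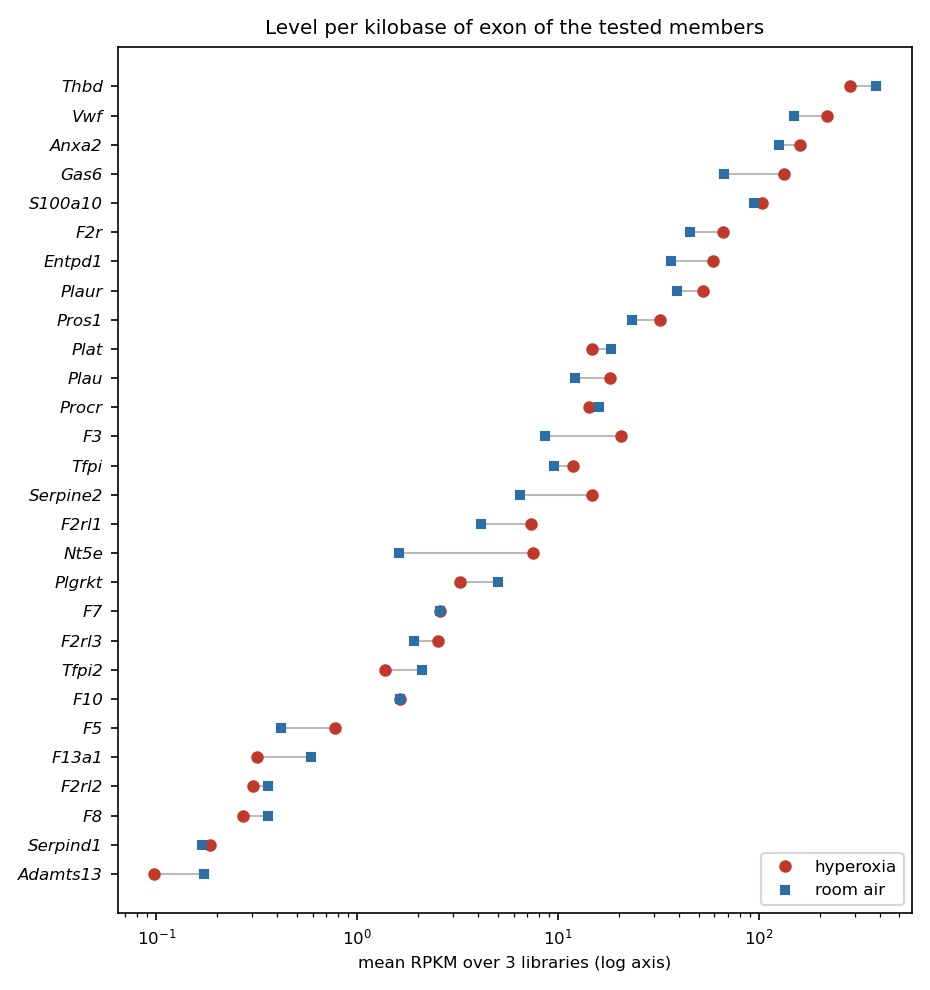
Mean level per kilobase of exon (RPKM, log axis) of the 28 tested genes in hyperoxia (red circles) and room air (blue squares), ordered by level. Thbd and Vwf stand at the top, and Adamts13 at the bottom at 0.097 RPKM in hyperoxia and 0.174 RPKM in room air.

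Per kilobase of exon, levels among these genes covered a wide range. Thbd led with 283 RPKM in hyperoxia and 381.6 RPKM in room air (CPM per kilobase of exon), and Vwf followed with 218.1 RPKM in hyperoxia and 150 RPKM in room air. Their places among the 17072 tested genes, by mean RPKM over all libraries, were 83 for Thbd and 197 for Vwf. Anxa2 and Gas6 came next, with 160.5 and 133.2 RPKM in hyperoxia and 126.3 and 66.7 RPKM in room air. Of the genes that rose, Nt5e was the lowest in room air, at 1.61 RPKM, and reached 7.47 RPKM in hyperoxia. Tissue factor stood at 20.6 RPKM in hyperoxia and 8.6 RPKM in room air, above Tfpi at 11.8 RPKM in hyperoxia and slightly below it at 9.52 RPKM in room air. Exon lengths came from an annotation of another build, so these levels are approximate.

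Of the protease-activated receptors, F2r and F2rl1 rose. F2r encodes PAR1, the main thrombin receptor of endothelial cells. It had 216.4, 216.2 and 230.1 CPM in hyperoxia libraries, against 159.3, 155.1 and 137.5 CPM in room air libraries. Neither group spread far, and they did not overlap (log2 fold change 0.55, SE 0.11, edgeR adjusted p = 0.00854). The call was lost without hyperoxia 3 (log2 fold change 0.51, adjusted p = 0.0545). F2rl1 encodes PAR2, which trypsin, tryptase and tissue factor with factor VII can cut, but thrombin hardly does. It had 18.6, 23.9 and 17.9 CPM in hyperoxia libraries, against 10.1, 11.1 and 12.9 CPM in room air libraries. The hyperoxia libraries were all above the room air libraries, with hyperoxia 2 and room air 3 highest in their groups (log2 fold change 0.83, SE 0.17, edgeR adjusted p = 0.0108), and the call held under all 15 alternatives, with adjusted p-values up to 0.0477.

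F2rl1 and F2r are next to each other on chromosome 13 among protein-coding genes, and F2rl2 lies 1 coding gene further, past Iqgap2. F2rl2 encodes PAR3, which in mouse platelets helps thrombin to cut PAR4. It had 39, 28 and 25 counts in hyperoxia libraries and 38, 18 and 55 counts in room air libraries, with a wide interval (log2 fold change -0.25, 95% interval -1.48 to 0.98). F2rl3, the gene of PAR4, averaged 5.01 ± 1.04 CPM in hyperoxia and 3.84 ± 0.537 CPM in room air, with overlap (log2 fold change 0.38, 95% interval -0.18 to 0.95, edgeR adjusted p = 0.395). The ratio of F2rl1 to F2r within a library was 0.0858, 0.111 and 0.0778 in hyperoxia and 0.0635, 0.0712 and 0.0936 in room air. These ratios overlapped between the groups.

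Both ectonucleotidase genes rose, and Nt5e changed more than any other of the 33 genes. Nt5e encodes CD73, which makes adenosine from AMP. It had 45.9, 91.2 and 55.9 CPM in hyperoxia libraries, against 8.52, 12.4 and 20.8 CPM in room air libraries. The lowest hyperoxia library was far above the highest room air library. Within each group hyperoxia 2 and room air 3 were highest, as in alveolar type 1 and several other non-endothelial marker sums. The log2 fold change was 2.21 (SE 0.33, edgeR adjusted p = 0.00274), or 4.63-fold. The call held in every set of 5 libraries and was lost with no filter on low counts (adjusted p = 0.0767). The part of alveolar type 1 or other non-endothelial cells in the Nt5e change was not tested.

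Entpd1 encodes CD39, which breaks ATP and ADP down to AMP, the substrate of CD73. It had 331.1, 306.7 and 347.3 CPM in hyperoxia libraries, against 240.5, 198.2 and 168.6 CPM in room air libraries. The groups did not overlap, and here hyperoxia 2 and room air 3 were the lowest of their groups, opposite to Nt5e. The log2 fold change was 0.70 (SE 0.14, edgeR adjusted p = 0.0102), and the call was lost without hyperoxia 3 (log2 fold change 0.64, adjusted p = 0.053). Summed, the CD39 and CD73 genes held 376.9 to 403.2 CPM in hyperoxia and 189.4 to 249.1 CPM in room air.

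**Figure D4:**
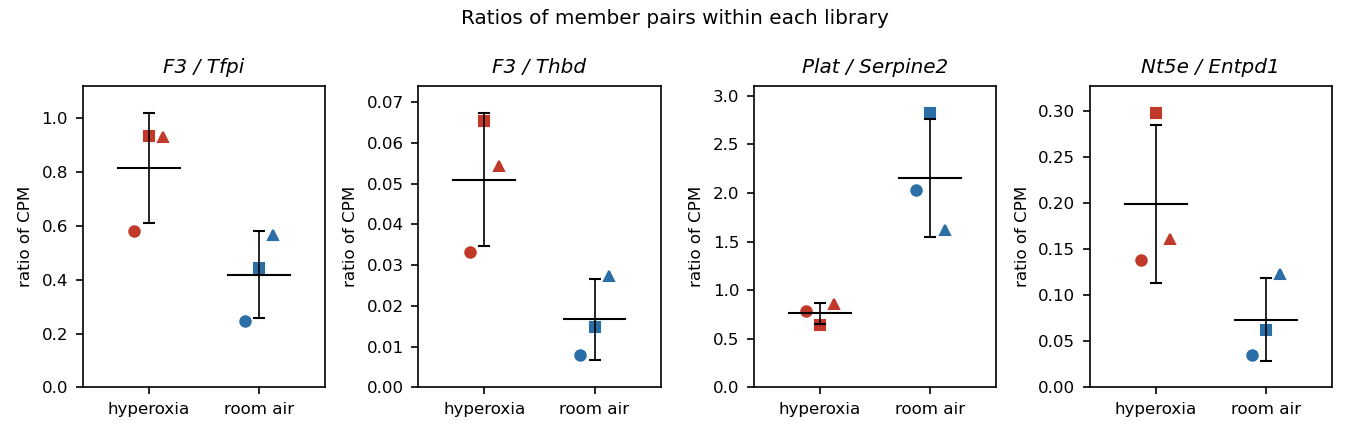
Ratio of CPM of 4 pairs of genes within each library, hyperoxia in red and room air in blue, with mean and SD (n = 3 per group; circles, squares and triangles are replicates 1, 2 and 3). F3 relative to Tfpi and to Thbd, and Nt5e relative to Entpd1, were higher in every hyperoxia library than in every room air library, and Plat relative to Serpine2 was lower.

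Ratios within a library set 1 gene against another, independent of the scaling between libraries. Nt5e and Entpd1 are not an opposing pair, since CD39 makes the substrate of CD73. Since CPM is not divided by gene length, such a ratio can be compared between libraries but does not say which gene of a pair had the higher level. The ratio of F3 to Tfpi was 0.58, 0.935 and 0.928 in hyperoxia libraries and 0.245, 0.445 and 0.565 in room air libraries. Hyperoxia 1 and room air 3 nearly met, so the groups were separated only narrowly. The ratio of F3 to Thbd was 0.0333, 0.0653 and 0.0543 in hyperoxia libraries and 0.0079, 0.0147 and 0.0274 in room air libraries, again without overlap. The ratio of Plat to Serpine2 was 0.785, 0.644 and 0.86 in hyperoxia libraries and 2.03, 2.82 and 1.62 in room air libraries. All hyperoxia libraries were far below all room air libraries in this ratio. The ratio of Plau to Serpine2 was 0.321 to 0.385 in hyperoxia and 0.436 to 0.707 in room air, without overlap as well. The ratio of Nt5e to Entpd1 was 0.138, 0.297 and 0.161 in hyperoxia libraries and 0.0354, 0.0624 and 0.123 in room air libraries. F3 to Thbd and Nt5e to Entpd1 were highest of their groups in hyperoxia 2 and room air 3. These libraries were highest of their groups in alveolar type 1 and several other non-endothelial marker sums, and lowest in endothelial markers. The part of the cell mix in the ratios was not tested. The pairs were chosen with the members' values known, so the ratios carry no test. Each pair above holds F3, Serpine2 or Nt5e, genes that rose, so its separation partly restates that change. Of the other pairs computed, Procr to Thbd, Plaur to Plau and F2rl1 to F2r overlapped between the groups. Gas6 to Pros1 and Vwf to Adamts13, the latter resting on few Adamts13 counts, were higher in every hyperoxia library.

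**Figure D5:**
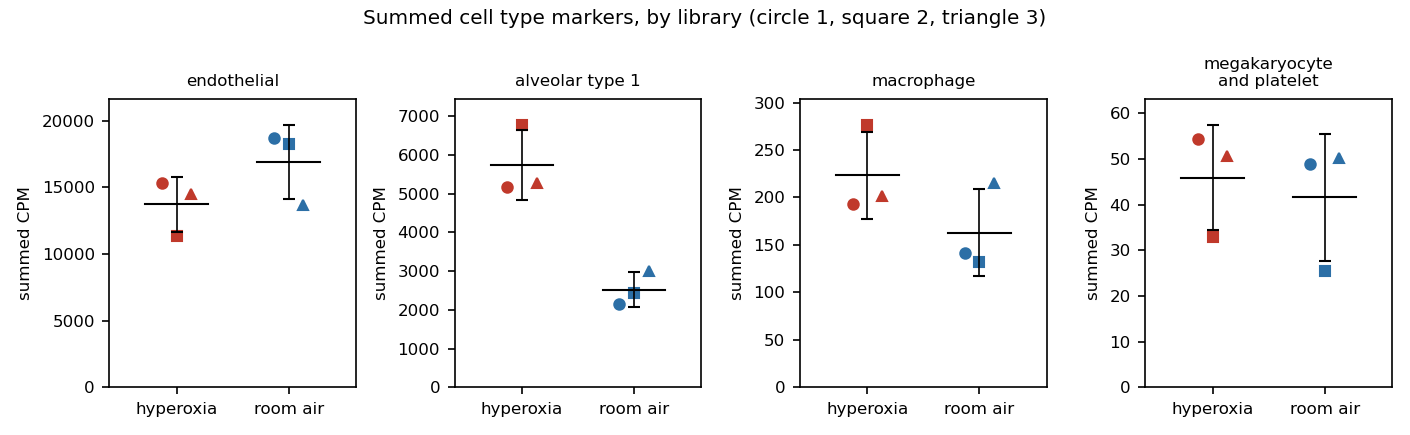
Summed CPM of 4 lists of cell type markers in each hyperoxia library (red, left) and room air library (blue, right), with mean and SD (n = 3 per group). The alveolar type 1 sums do not overlap, at 5163 to 6772 CPM in hyperoxia and 2145 to 3010 CPM in room air, while the endothelial, macrophage and platelet sums overlap.

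Other cells that can make these proteins were followed through their markers. The background for each of these lists is the 6.77% of all tested genes called higher and the 4.41% called lower. Macrophages can express F7, F10, F13a1, Plaur and Plau. Of 10 macrophage markers, 2 rose (Marco and Cd68), 1 fell (Chil3) and 7 did not pass, and their sum was 193 to 276.2 CPM in hyperoxia and 132 to 215.4 CPM in room air. Mesothelial cells are another source of fibrinolytic proteins. Of 6 mesothelial markers 2 rose, Msln and Krt19, of which Krt19 is also an epithelial keratin, and 4 did not pass. Over the list the median was -0.11 on the log2 scale. Among these 4, Lrrn4 (-1.66 on the log2 scale, all hyperoxia libraries below all room air libraries), Upk3b (-0.95) and Upk1b (-0.26) had negative log2 fold changes, and Wt1 was at most 1.04 CPM in any hyperoxia library and 0.75 CPM in any room air library. Of 8 venous endothelial markers 4 rose and 4 did not pass, and their sum was 1025 to 1389 CPM in hyperoxia and 986.7 to 1565 CPM in room air. The hepatocyte marker sum was at most 2.67 CPM in hyperoxia and 3.58 CPM in room air. The part of these cells in the changes of the 33 genes was not tested.

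A further 61 haemostasis genes were taken by function, also with earlier results of these data known, so their shares are no test either. Of these, 47 passed the filter, 13 were higher (27.7%, against 6.77% of all tested genes), 4 were lower (8.51%, against 4.41%) and 30 did not pass, and their median log2 fold change was 0.26. Of the 13, Fgg and Serpina10 passed the filter only through the hyperoxia libraries. Leaving out genes that reached the filter's level in every library of 1 group only, 11 of 44 related genes were higher (25%, against 7.14% of all genes left) and 4 lower, a count added after seeing the data. The 13 became 7 without hyperoxia 3, 7 without room air 1 and 6 without room air 2. The 4 became 1 without hyperoxia 2, 1 without room air 1, 1 without room air 2 and 2 without hyperoxia 3.

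Of 5 tested genes for clotting factors and their export, 1 fell (Ggcx; 20%, against 4.41% of all tested genes). Another 1 was called higher (Fgg, 20%, against 6.77%), and 3 did not pass. Ggcx, the carboxylase that readies vitamin K-dependent proteins such as Gas6 and protein S, fell to 31.5 ± 1.12 CPM in hyperoxia, against 46.8 ± 1.1 CPM in room air (log2 fold change -0.57, SE 0.10, edgeR adjusted p = 0.00551), also under all 15 alternatives. Fgg, the fibrinogen gamma chain gene, had 20, 50 and 22 counts in hyperoxia libraries and 0, 0 and 4 in room air libraries. It passed the filter only through the hyperoxia libraries, so its place among the tested genes already required a difference, and its call (edgeR adjusted p = 0.0286) was lost without hyperoxia 1 (0.0507), hyperoxia 2 (0.0644), hyperoxia 3 (0.0676), room air 1 (0.099) or room air 2 (0.124).

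Among 8 tested serpins and protease inhibitors, 5 were called higher (62.5%, against 6.77% of all tested genes), Serpina10 among them. Of the others, 1 fell (12.5%, against 4.41%) and 2 did not pass. Serpinb8 rose to 10.7 ± 1.6 CPM in hyperoxia, against 3.13 ± 0.644 CPM in room air (log2 fold change 1.78, SE 0.23, edgeR adjusted p = 0.00109). Spint1 and Spint2 encode membrane-bound Kunitz inhibitors typical of epithelium. Spint1 averaged 45.5 ± 6.1 CPM in hyperoxia and 23.3 ± 4.14 CPM in room air, and Spint2 averaged 269.2 ± 55.6 CPM in hyperoxia and 147.6 ± 32.2 CPM in room air. Both rose (log2 fold change 0.97 and 0.87, edgeR adjusted p = 0.00299 and 0.0117), and Spint2 did not pass without room air 1 (0.0558) or room air 2 (0.0587). Among epithelial markers those of alveolar type 1 cells rose too, but 0 of 8 alveolar type 2 and 1 of 5 tested airway markers did. The part of epithelial cells in the Spint1 and Spint2 changes was not tested. Serpina10, which encodes the protein Z-dependent inhibitor of factor X, had 32, 56 and 45 counts in hyperoxia libraries and 7, 11 and 2 in room air libraries. Like Fgg it passed the filter only through the hyperoxia libraries. Its call (edgeR adjusted p = 0.0345) was lost on leaving out any 1 library, at adjusted p-values from 0.0607 to 0.113.

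Of 11 tested genes of the heparan sulfate and lipid surface, 4 rose (36.4%, against 6.77% of all tested genes) and 7 did not pass. Ptgs1, the cyclooxygenase-1 gene, averaged 175 ± 28.7 CPM in hyperoxia and 92.6 ± 13.8 CPM in room air (log2 fold change 0.92, SE 0.15, edgeR adjusted p = 0.00317). Ndst1, an enzyme that sulfates heparan chains, averaged 675 ± 42.4 CPM in hyperoxia and 400.2 ± 43.2 CPM in room air (log2 fold change 0.75, SE 0.13, edgeR adjusted p = 0.00415). Hs3st1 makes the heparan sulfate motif that binds antithrombin, and Sdc4 is a heparan sulfate proteoglycan. Both rose (log2 fold change 0.51 and 0.72, edgeR adjusted p = 0.0375 and 0.0334), but Hs3st1 did not pass without hyperoxia 1 (0.125), hyperoxia 3 (0.126), room air 1 (0.0584), room air 2 (0.0671) or room air 3 (0.0933). Sdc4 did not pass without hyperoxia 2 (0.0944), hyperoxia 3 (0.101), room air 1 (0.123) or room air 2 (0.135).

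Of 12 tested genes of purine receptors and nucleotide enzymes, 1 was higher (8.33%, against 6.77% of all tested genes), 2 were lower (16.7%, against 4.41%) and 9 did not pass, and each of the 3 calls was lost when certain single libraries were left out. The adenosine receptor gene Adora2a averaged 25.5 ± 5.85 CPM in hyperoxia and 43.0 ± 7.82 CPM in room air (log2 fold change -0.75, SE 0.19, edgeR adjusted p = 0.0277). Slc29a1, a transporter that takes adenosine into cells, averaged 99.6 ± 20.5 CPM in hyperoxia and 157.5 ± 23.1 CPM in room air (log2 fold change -0.66, SE 0.16, edgeR adjusted p = 0.0257). Adora2a did not pass without hyperoxia 2 (0.0538), room air 1 (0.0915) or room air 2 (0.112), nor Slc29a1 without hyperoxia 2 (0.0605), hyperoxia 3 (0.0554), room air 1 (0.0919) or room air 2 (0.0696). Adora1 was higher, at 4.46 ± 1.42 CPM in hyperoxia and 1.84 ± 0.455 CPM in room air (log2 fold change 1.28, edgeR adjusted p = 0.0308), but not without hyperoxia 2 (0.0894), hyperoxia 3 (0.0667), room air 1 (0.0991) or room air 2 (0.116). Of Adora1's exonic bases, 20.1% overlap Mybph on the other strand.

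Of 8 tested receptors and proteases that act on plasminogen, fibrin and the activators, 2 rose (25%, against 6.77% of all tested genes) and 6 did not pass. Vldlr, which takes up complexes of urokinase with its inhibitors, averaged 59.0 ± 9.16 CPM in hyperoxia and 27.7 ± 3.03 CPM in room air (log2 fold change 1.09, SE 0.14, edgeR adjusted p = 0.000995). Itgb3, an integrin subunit that binds fibrinogen and von Willebrand factor, averaged 56.3 ± 3.68 CPM in hyperoxia and 34.0 ± 5.92 CPM in room air (log2 fold change 0.73, SE 0.14, edgeR adjusted p = 0.00671). Of the receptors of Gas6 and protein S, Axl, Mertk and Tyro3, 0 of 3 passed by edgeR, DESeq2 or limma-voom, and each tool had 1 at an unadjusted p below 0.05. Axl had a log2 fold change of 0.21 (edgeR adjusted p = 0.491) and Mertk of 0.36 (edgeR adjusted p = 0.097).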

How the data were processed

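RNA was sequenced from CD31 microbead-selected lung cells. The deposited values are raw counts per Ensembl gene ID, 1 column per library. The build GRCm39 and the tools featureCounts, Subread 2.0.6, HISAT2 2.2.1 and DESeq2 are listed per the submitters' processing notes, without roles; annotation, strand and multimapping settings: not given in the sources used here. From the deposited counts, levels, fold changes and p-values were computed with R 4.3.3. Genes were filtered with filterByExpr (minimum count 10, total 15; 17072 kept), scaled by TMM and compared with edgeR 4.0.16's robust quasi-likelihood test, with no covariate and Benjamini-Hochberg adjustment. The test was checked on simulated counts. DESeq2 1.42.0 and limma 3.58.1 (voom) were alternatives. Approximate standard errors were derived from the fold change and F statistic of each gene. RPKM used exon lengths from GENCODE M21 (GRCm38). Symbols matched 51948 IDs. No pair of libraries within a group agreed to within counting noise (lowest chi-square, divided by its degrees of freedom, 15). Floors for a count of 0 cover counting error only. Members, gene lists and tests were chosen with earlier results of these data known. All 33 members are named, as are the called related genes, at most 4 per list by size; the related lists' own rule left out Serpinb6a and Serpinh1.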

Additional observations from a re-analysis of the deposited data

How the results depend on the processing

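All 9 higher members kept their direction under all 15 alternatives run for them; of 417 comparisons of a tested member with an alternative, 387 gave the same call, 14 gained one and 16 lost one, and none of the called changes turned round. Gas6, Serpine2 and F2rl1 passed in all of them. Leaving out 1 library in turn gave 5 to 9 members higher and 0 to 1 lower, 6 to 13 related genes higher and 1 to 4 lower, and 681 to 1095 of all genes higher and 376 to 749 lower. Members lower numbered 1 with no filter on low counts, with the DESeq2 test, at an adjusted p below 0.1 and without hyperoxia 2 and room air 3. At an adjusted p below 0.01, 4 members were higher, 6 related genes higher and 1 lower, and 556 of all genes higher and 233 lower. All genes lower numbered 1243 with no filter, 1243 with the DESeq2 test and 1235 at an adjusted p below 0.1, and the cause was not tested. With no filter, edgeR adjusted p-values moved far at nearly unchanged fold changes. That of F3 went from 0.0113 to 9.76e-12, and that of Nt5e from 0.00274 to 0.0767. A pass gained in the unfiltered table is therefore weak evidence. With replicate number as a block, 7 members were higher, Pros1 (adjusted p = 0.0625) and Plaur (0.0662) not passing by edgeR. In that setting 9 related genes were higher and 3 lower, and no count over all genes is given beside them. Same-numbered libraries correlated at 0.11, -0.04 and -0.09 in their deviations from group means. With 3 libraries per group these values cannot settle whether the numbers pair the libraries, and the labels do not say. The median log2 fold change of all genes was -0.01 with TMM and -0.02 to -0.03 with the other scalings. Depth limits Adamts13, Serpind1, F2rl2 and the 5 members below the filter.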
